A study of Homo sapiens with 8 samples.

Results

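The genes that copy DNA in S phase were examined in U87 cells after knockdown of RND3. The set held 52 genes, named for their known function in DNA replication, out of 14805 genes tested and 19483 with a symbol on the array. The 52 genes were sorted by role into 11 groups, among them the MCM helicase, the GINS complex, the polymerases and the RFC clamp loader. All 52 were well above background on all 8 arrays, so no gene of the set was lost to a filter on dim signals. For the 11 genes with several probes, the probe with the highest mean at 24 h was used throughout.

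U87 is a long-established human glioblastoma cell line, and its cells were reverse transfected either with siRNA that targets RND3 (siRND3) or with a non-silencing control siRNA (siControl). The study used this knockdown to ask which transcripts respond to loss of RND3. At 24 h after transfection there were 3 siControl and 3 siRND3 arrays, and at 48 h 1 of each, all of total RNA on 1-colour Agilent arrays. The labels give no separate clones or transfections, and the methods describe a pair of siRNA oligos against RND3 without naming the one used for each array. All siRND3 arrays lay in one row of a single slide and all siControl arrays in another, so treatment cannot be told apart from position on the slide.

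Values are log2 intensities normalised to a common distribution over the 8 arrays. They compare 1 gene between arrays and do not rank genes against each other. Unless stated otherwise, the values of a group are listed in the order of replicates 1, 2 and 3, and a difference is the siRND3 mean minus the siControl mean on the log2 scale. Of 42405 probes, 68.3% to 70.7% per array were well above background, and r across probes was 0.991 to 0.995 for pairs of replicate arrays at 24 h. The 6 markers of a mesenchymal glioma line were well above background on all 8 arrays, whereas CDH1 of epithelium and RBFOX3 of neurons were not so on any. MTAP, which U87 cells are known to lack, was at background throughout, but CDKN2A, also known to be deleted in this line, gave log2 values of 9.13 to 9.59 and was well above background on all 8. The 7 control genes were not called at 24 h. Of the glioma markers, NES rose by 0.41 and CD44 fell by 0.56 at 24 h. Of 12 markers of blood, endothelium, epithelium and neurons, 9 were well above background on all 8 arrays, and 3 were called at 24 h, where PECAM1 fell by 0.99, SYT1 by 0.49 and SNAP25 by 0.42. Their part in the results was not tested.

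In G1 the origin recognition complex, CDC6 and CDT1 load rings of MCM2 to MCM7 onto DNA, which licenses each origin for a single round of firing. In S phase CDC45 and the 4-subunit GINS complex join the MCM ring and turn it into the active helicase. Polymerases, the PCNA clamp, its RFC loader and the RPA single-strand binding complex then copy the opened strands. Transcription of most of these genes is driven by E2F factors and is highest around the start of S phase, so their RNA is widely read as a measure of proliferation. In RNA from a whole culture, a change in the share of cells in S phase and a change in RNA per cell cannot be told apart. In separate assays of U87 cells, the study reported slower proliferation after RND3 knockdown. It also reported fewer cells that took up BrdU, a label of newly made DNA. How the RNA levels given here relate to those assays was not tested.

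The targeted gene was examined first. RND3 (probe A_23_P142849) had log2 values of 11.88, 11.91 and 11.90 on the siControl arrays and 10.13, 10.18 and 10.41 on the siRND3 arrays at 24 h. The groups did not overlap, and knockdown left 31.7% of the RNA measured in siControl cells, a difference of -1.66 (SE 0.09, limma adjusted p 0.000338). Exact permutation of these 6 values gave a two-sided p of 0.1, which is as low as 3 arrays against 3 allow. At 48 h the values were 11.48 and 9.83.

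To show what the set has in common in its DNA, promoter windows of 300 bases (250 before and 50 after the annotated start) were read from RefSeq for assembly GRCh38.p14. Of the 52 genes, 45 had a window, and those without an entry were E2F8, RPA2, POLD3, RPA3, GINS4, MCM5 and MCM4. The 4 E2F words TTTCCCGC, TTTCGCGC, TTTGCCGC and TTTGGCGC, searched on both strands, occurred in 25 of the 45 genes (55.6%), compared with 5.40% of 15843 coding genes. Overlaps between words count as separate matches. CCAAT, the box bound by NF-Y, was present in 64.4% of the 45 genes and 42.1% of coding genes, and the SP1 word GGGCGG in 77.8% and 64.3%. A match describes letters in this window only and is not evidence of binding. Below are the windows of the 3 GINS genes that rose together, of MCM7, which rose, and MCM3, which did not pass, both with an E2F word close to the start, and of ORC1, which had the largest rise. Each runs 5′ to 3′ on the gene's own strand, with the E2F words in capitals.
GINS1 (GRCh38.p14 chr20:25407423-25407722, plus strand): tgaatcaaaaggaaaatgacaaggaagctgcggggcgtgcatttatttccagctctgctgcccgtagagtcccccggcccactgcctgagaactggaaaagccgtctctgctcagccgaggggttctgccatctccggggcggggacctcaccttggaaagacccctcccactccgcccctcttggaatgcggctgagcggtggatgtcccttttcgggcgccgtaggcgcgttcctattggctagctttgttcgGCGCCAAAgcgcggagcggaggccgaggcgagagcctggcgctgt
GINS2 (chr16:85688905-85689204, minus strand): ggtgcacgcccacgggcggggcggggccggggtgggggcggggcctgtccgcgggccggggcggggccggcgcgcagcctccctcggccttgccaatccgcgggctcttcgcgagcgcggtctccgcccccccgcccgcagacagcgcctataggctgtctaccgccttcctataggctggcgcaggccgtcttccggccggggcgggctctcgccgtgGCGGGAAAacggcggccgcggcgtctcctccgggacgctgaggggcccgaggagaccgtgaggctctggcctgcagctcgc
GINS3 (chr16:58392221-58392520, plus strand): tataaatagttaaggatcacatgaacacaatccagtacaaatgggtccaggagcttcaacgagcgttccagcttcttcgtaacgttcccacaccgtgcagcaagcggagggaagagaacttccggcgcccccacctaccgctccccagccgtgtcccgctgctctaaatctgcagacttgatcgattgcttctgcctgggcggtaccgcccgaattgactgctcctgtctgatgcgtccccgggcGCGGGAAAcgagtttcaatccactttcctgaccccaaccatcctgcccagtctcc
MCM7 (chr7:100101348-100101647, minus strand, 1 of 3 RefSeq windows of this gene): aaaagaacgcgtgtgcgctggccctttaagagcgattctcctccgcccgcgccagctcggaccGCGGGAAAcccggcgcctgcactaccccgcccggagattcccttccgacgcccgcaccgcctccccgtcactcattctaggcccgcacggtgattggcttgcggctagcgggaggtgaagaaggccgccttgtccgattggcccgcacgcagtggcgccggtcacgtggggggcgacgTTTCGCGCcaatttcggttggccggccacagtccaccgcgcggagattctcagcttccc
MCM3 (chr6:52284693-52284992, minus strand): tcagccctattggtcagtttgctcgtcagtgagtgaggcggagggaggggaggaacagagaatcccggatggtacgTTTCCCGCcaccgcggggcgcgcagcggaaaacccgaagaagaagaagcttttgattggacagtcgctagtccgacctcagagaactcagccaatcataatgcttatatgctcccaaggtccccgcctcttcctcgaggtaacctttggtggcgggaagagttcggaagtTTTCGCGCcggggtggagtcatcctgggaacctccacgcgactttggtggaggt
ORC1 (chr1:52404374-52404673, minus strand): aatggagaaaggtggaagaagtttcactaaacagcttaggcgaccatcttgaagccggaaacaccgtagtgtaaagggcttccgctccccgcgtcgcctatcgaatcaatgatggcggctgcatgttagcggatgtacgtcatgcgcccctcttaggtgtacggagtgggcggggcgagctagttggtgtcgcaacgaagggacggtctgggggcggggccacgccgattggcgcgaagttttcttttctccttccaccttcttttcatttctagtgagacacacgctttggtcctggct

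The E2F word began 5 bases after the start in GINS1, and in the other windows its first base stood at -31 in GINS2, at -5 in GINS3, at -187 and -9 in MCM7 and at -174 and -4 in MCM3, counted from the start. ORC1 held none of the 4 words in its window. MCM6 had the most, with 4. The E2F words were found in 7 of the 14 genes raised at 24 h and in 18 of the 31 others with a window. The SP1 word was in the windows of all 14 raised genes and of 21 of the 31 others, a description over these windows with no test.

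Across the set, RNA levels at 24 h were higher in siRND3 than in siControl cells for most genes, and the shifts were small. Of the 52 genes, 14 were up-regulated at a limma adjusted p of 0.05 (26.9%, against 6.71% of all genes tested) and 1, GINS4, was down-regulated (1.92%, against 8.31%). The remaining 37 did not pass. Rises ranged from 0.32 to 0.59 on the log2 scale, or 24.9% to 50.7% above the siControl level, with limma adjusted p for the 15 called genes between 0.00868 and 0.0471. The difference was positive for 46 of the 52 genes (88.5%, against 57.3% of all genes), with a median of 0.25 compared with 0.04 over all genes. For 33 genes all siRND3 arrays lay above all siControl arrays (63.5%, against 24.1%), for 4 all lay below (7.69%, against 17.5%), and for 15 the groups overlapped.

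The number of up-regulated genes depended on which arrays entered the fit. It was 2 without siControl replicate 1 (LIG1 and ORC1), 1 without siControl replicate 2 (LIG1) and 1 without siControl replicate 3 (BLM), and it was 12, 9 and 6 without siRND3 replicates 1, 2 and 3. With normexp background correction the count was 25. The median difference moved far less, from 0.23 to 0.29 over the settings in which it was computed, which leave out significance analysis of microarrays (SAM), array weights, the replicate block and the fit of all 8 arrays.

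**Figure D1:**
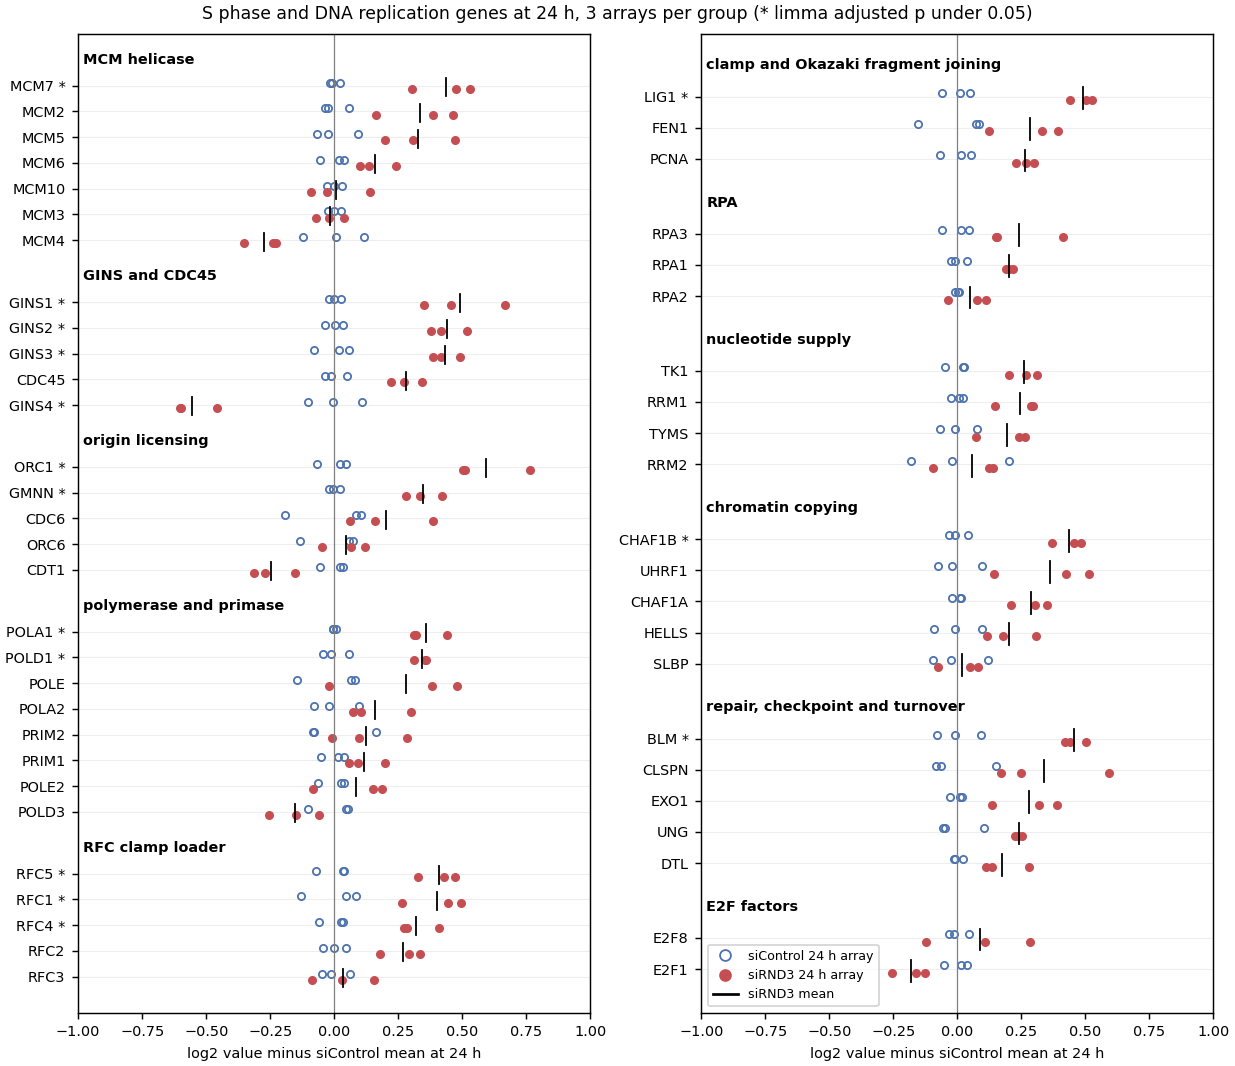
Each of the 52 genes at 24 h, grouped by role, with the log2 value of each array minus the siControl mean on the horizontal axis (open circles, 3 siControl arrays; filled circles, 3 siRND3 arrays; bar, siRND3 mean). An asterisk marks the 15 genes past a limma adjusted p of 0.05. Most filled circles lie to the right of 0, with ORC1 farthest at 0.59, and GINS4 stands apart on the left at -0.55.

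Within the MCM helicase, the ring that unwinds DNA at the fork, the subunits did not move as a block. MCM7 was the one of 7 MCM genes past the threshold at 24 h, where 6.71% of all genes rose and 8.31% fell. Its log2 values were 14.88, 14.89 and 14.92 in siControl cells and 15.20, 15.37 and 15.43 in siRND3 cells, a rise of 0.44 (SE 0.08, limma adjusted p 0.0220). The second MCM7 probe differed by 0.48 and did not pass (adjusted p 0.0846).

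MCM2 and MCM5 sit next to each other at the gate through which DNA enters the ring. Values of MCM2 were 12.52, 12.54 and 12.62 in siControl cells and 12.72, 13.02 and 12.94 in siRND3 cells. Those of MCM5 were 12.65, 12.69 and 12.81 against 12.92, 13.19 and 13.03. In both genes every siRND3 array was above every siControl array, with differences of 0.34 and 0.33, but limma adjusted p was 0.0755 for MCM2 and 0.0792 for MCM5. Both passed with normexp, with the deposited log2 values and in the fit of all 8 arrays.

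The other MCM genes were closer to no difference or below it. MCM6 values were 12.27, 12.25 and 12.18 in siControl cells and 12.37, 12.33 and 12.47 in siRND3 cells, a difference of 0.16 (limma adjusted p 0.224). MCM3 values were 13.50, 13.45 and 13.47 against 13.40, 13.45 and 13.51, so the groups overlapped. The MCM3 difference was -0.018 with a 95% interval of -0.18 to 0.15, and its sign turned under scaling to the 75th percentile (0.020). MCM10, which is not part of the ring but binds it to start unwinding, had values of 7.69, 7.72 and 7.74 against 7.69, 7.63 and 7.86, also overlapping (0.0084, 95% interval -0.19 to 0.21). MCM4 had values of 11.29, 11.05 and 11.18 in siControl cells and 10.82, 10.94 and 10.93 in siRND3 cells. All siRND3 arrays were thus lower for MCM4, and the difference of -0.27 had a limma adjusted p of 0.101. It passed with normexp and with all 8 arrays in the fit.

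The GINS complex, which bridges the helicase and the leading-strand polymerase, had differences past the threshold in both directions. Its subunits act as a single complex, and 3 of the genes rose while 1 fell, where 6.71% of all genes rose and 8.31% fell. GINS1 (PSF1) had log2 values of 10.31, 10.29 and 10.27 in siControl cells and 10.96, 10.64 and 10.74 in siRND3 cells, a rise of 0.49 (SE 0.10, limma adjusted p 0.0250). GINS2 (PSF2) had values of 11.19, 11.15 and 11.22 against 11.56, 11.60 and 11.70, a rise of 0.44 (SE 0.07, adjusted p 0.0144). GINS3 (PSF3) had values of 11.30, 11.16 and 11.26 against 11.65, 11.62 and 11.73, a rise of 0.43 (SE 0.07, adjusted p 0.0165). In all 3 genes the lowest siRND3 array exceeded the highest siControl array, as in 24.1% of all genes. GINS4 (SLD5) had values of 11.17, 10.96 and 11.05 in siControl cells and 10.60, 10.46 and 10.46 in siRND3 cells. Its log2 level fell by 0.55 (SE 0.09, limma adjusted p 0.0121), a change of -31.9%, with no overlap between groups. GINS4 did not pass without siControl replicate 1 or siControl replicate 3, and over the settings tried the adjusted p lay between 0.00253 and 0.0559. CDC45, the partner of GINS on the helicase, differed by 0.28 with no overlap and narrowly missed the threshold (adjusted p 0.0550). These 5 genes had 1 probe each, so no second probe could be set against them.

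Of the 5 origin licensing genes, 2 rose and none fell past the threshold in limma, where 6.71% of all genes rose and 8.31% fell. ORC1, an ATP-binding subunit of the origin recognition complex, had the largest rise of the set. Its log2 values were 8.39, 8.28 and 8.37 in siControl cells and 8.85, 9.11 and 8.86 in siRND3 cells, a rise of 0.59 (SE 0.10, limma adjusted p 0.0131). GMNN encodes geminin, the inhibitor that binds CDT1 and prevents a second round of licensing, and it rose by 0.35 (adjusted p 0.0287). CDT1 itself, the loader that geminin blocks, had values of 12.02, 12.12 and 12.10 in siControl cells and 11.77, 11.93 and 11.81 in siRND3 cells. All siRND3 arrays were lower for CDT1, with a difference of -0.25 (limma adjusted p 0.0922) that passed with all 8 arrays in the fit. CDC6 (0.20) and ORC6 (0.047), which act with ORC1 in loading the ring, had overlapping groups.

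Polymerase and primase genes were mostly positive, and 2 of 8 rose past the threshold, where 6.71% of all genes did. POLA1, the catalytic subunit of the polymerase that extends primers, had values of 10.32, 10.33 and 10.32 in siControl cells and 10.64, 10.63 and 10.76 in siRND3 cells. It rose by 0.36 (SE 0.07, limma adjusted p 0.0260). POLD1, the catalytic subunit of the lagging-strand polymerase, rose by 0.34 (adjusted p 0.0259). POLD3, an accessory subunit of the same polymerase, was the one gene of this group with a negative difference, with values of 9.66, 9.82 and 9.81 against 9.51, 9.62 and 9.70 and overlapping groups (-0.15, adjusted p 0.303). The leading-strand polymerase genes POLE (0.28) and POLE2 (0.08), the POLA1 partner POLA2 (0.16) and the primase genes PRIM1 (0.12) and PRIM2 (0.12) did not pass. PRIM2 had 3 probes, 1 of which was negative (-0.10).

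The RFC clamp loader, which opens PCNA and places it on DNA, had 3 of its 5 genes up-regulated, where 6.71% of all genes were. RFC5 had log2 values of 11.97, 11.86 and 11.97 in siControl cells and 12.26, 12.36 and 12.41 in siRND3 cells, a rise of 0.41 (SE 0.08, limma adjusted p 0.0212). RFC1, the large subunit, rose by 0.40 (adjusted p 0.0471) and RFC4 by 0.32 (adjusted p 0.0430). RFC5 kept its call in 11 of 17 other settings, RFC1 in 9 and RFC4 in 8, and RFC4 did not pass with SAM. RFC2 differed by 0.27 with no overlap and did not pass (adjusted p 0.0708). RFC3 stood apart from its partners with overlapping groups and a difference of 0.032 (95% interval -0.18 to 0.24), which turned negative with normexp and with the deposited values, and its second probe gave -0.029.

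Genes for the clamp and for joining Okazaki fragments all lay higher in siRND3 cells, without overlap between groups, as did 24.1% of all genes. LIG1, the ligase that seals Okazaki fragments, had values of 10.43, 10.47 and 10.36 in siControl cells and 10.92, 10.95 and 10.86 in siRND3 cells. It rose by 0.49 (SE 0.07, limma adjusted p 0.00868) and kept its call in 16 of 17 other settings, more than any other gene of the set. FEN1, the nuclease that trims the flap before ligation, had values of 11.19, 10.97 and 11.21 against 11.25, 11.52 and 11.45 (0.28, adjusted p 0.149). PCNA, the sliding clamp, had values of 12.00, 11.88 and 11.96 against 12.21, 12.17 and 12.24 (0.26, adjusted p 0.0611). PCNA did not pass here, although it did under 4 of the other settings.

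RPA genes, which encode the trimer that coats single-stranded DNA, did not pass. RPA1 had values of 12.44, 12.42 and 12.48 in siControl cells and 12.66, 12.63 and 12.65 in siRND3 cells, tight in both groups and without overlap (0.20, limma adjusted p 0.0981). Its second, dimmer probe gave -0.06. RPA2 had values of 12.57, 12.56 and 12.57 against 12.64, 12.53 and 12.68, overlapping (0.05). RPA3 had values of 13.70, 13.67 and 13.60 against 14.07, 13.81 and 13.81, with siRND3 replicate 1 the highest (0.24, adjusted p 0.163). The RPA subunits thus gave no call in either direction.

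Genes of nucleotide supply did not pass either. TK1, the thymidine kinase that marks S phase cells, had values of 15.76, 15.83 and 15.83 in siControl cells and 16.01, 16.12 and 16.08 in siRND3 cells, without overlap (0.26, limma adjusted p 0.0623). RRM1, the large subunit of ribonucleotide reductase, differed by 0.24 without overlap, whereas its partner RRM2 differed by 0.06 with overlap, and TYMS, which makes thymidylate, by 0.19 with overlap.

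Among genes that rebuild chromatin behind the fork, CHAF1B, a subunit of the histone chaperone CAF-1, rose. Its values were 10.92, 10.85 and 10.87 in siControl cells and 11.34, 11.36 and 11.25 in siRND3 cells, a rise of 0.44 (SE 0.07, limma adjusted p 0.0134). CHAF1A, the large subunit of the same chaperone, differed by 0.29 and missed the threshold narrowly (adjusted p 0.0507). UHRF1 and HELLS, which maintain DNA methylation on new strands, differed by 0.36 and 0.20 without overlap and did not pass. SLBP, which binds the stem-loop of histone mRNA, had overlapping groups (0.018).

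In the group of repair, checkpoint and turnover genes, all siRND3 arrays were above all siControl arrays for each of the 5 genes. The same held for 24.1% of all genes. BLM, a helicase that resolves recombination structures at forks, had values of 9.27, 9.34 and 9.44 in siControl cells and 9.79, 9.77 and 9.86 in siRND3 cells. It rose by 0.45 (SE 0.08, limma adjusted p 0.0150). Claspin (CLSPN, 0.34), the nuclease EXO1 (0.28), the uracil glycosylase UNG (0.24) and DTL (0.18), the adaptor that targets CDT1 for destruction in S phase, did not pass.

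The E2F factors of the set, E2F1 and E2F8, did not pass at 24 h. E2F1, an activator, had values of 11.20, 11.27 and 11.29 in siControl cells and 11.10, 11.13 and 11.00 in siRND3 cells. All siRND3 arrays lay lower for E2F1, with a difference of -0.18 that did not pass (limma adjusted p 0.165). E2F8, an atypical repressor, had values of 8.44, 8.38 and 8.36 against 8.67, 8.27 and 8.50. The E2F8 groups overlapped, with a difference of 0.09 that turned negative with all 8 arrays in the fit. Outside the set, the activator E2F2 rose by 0.44 (adjusted p 0.0163 in limma) and TFDP1, the dimer partner of E2F proteins, by 0.32 (adjusted p 0.0403). Also outside it, E2F5 fell by 0.42 (limma adjusted p 0.0430) and E2F7 by 0.54 (adjusted p 0.0129). E2F3, E2F4, E2F6 and TFDP2 did not pass.

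**Figure D2:**
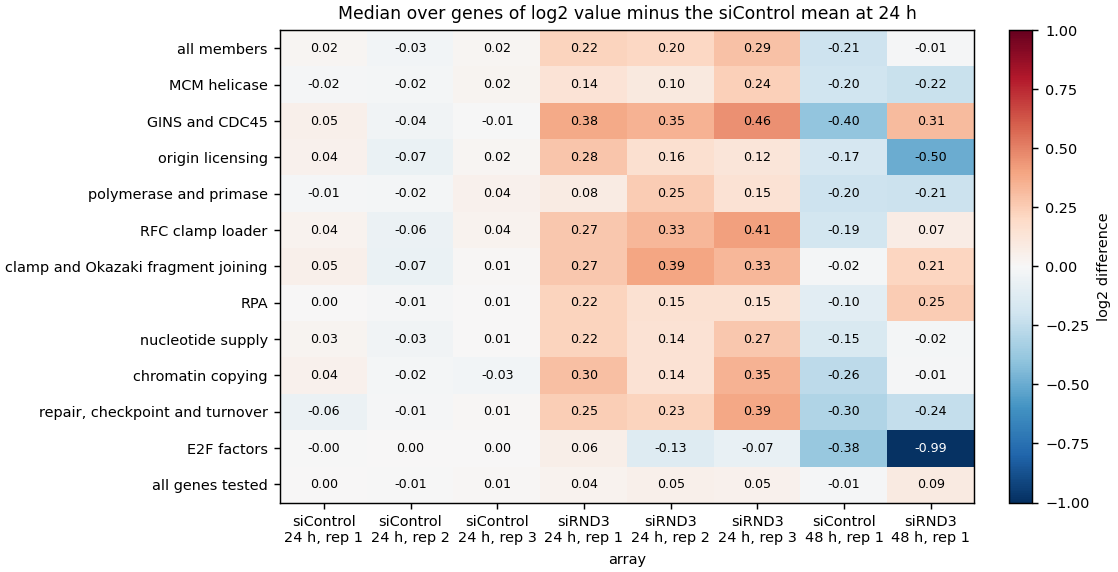
Median over the genes of each group of the log2 value minus the siControl mean at 24 h, for each of the 8 arrays, with all 52 genes in the first row and all genes tested in the last. The 3 siRND3 arrays at 24 h have medians of 0.22, 0.20 and 0.29 over the 52 genes, against 0.04 to 0.05 over all genes, and both arrays at 48 h lie lower.

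The shift at 24 h was present on each siRND3 array rather than carried by a single one. The median over the 52 genes, relative to the siControl mean, was 0.22, 0.20 and 0.29 on siRND3 replicates 1, 2 and 3, and it was 0.02, -0.03 and 0.02 on the siControl arrays. Spread within groups was small, with a median SD of 0.05 in siControl cells and 0.08 in siRND3 cells (n = 3 each). Groups with the highest medians of the difference were GINS and CDC45 (0.43) and the RFC clamp loader (0.32), and the E2F factors had the lowest (-0.05).

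At 48 h each treatment had a single array, so these differences have no replicate check. The siRND3 array was higher for 36 of the 52 genes (69.2%, against 55.5% of all genes), with a median difference of 0.14 compared with 0.06 over all genes. All 14 genes up-regulated at 24 h were higher at 48 h too, by 0.11 to 0.80 with a median of 0.48. These 14 were picked for their rise at 24 h. The same share was not computed for the other genes raised at 24 h, so this is not shown to be particular to the set. ORC1 was at 8.08 in siControl and 8.88 in siRND3 cells. GINS2 was at 10.79 and 11.54, and GINS3 at 11.00 and 11.66. GINS4 again ran opposite to its partners, at 10.53 in siControl and 9.67 in siRND3 cells.

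The 48 h arrays also separated genes that had been alike at 24 h. E2F8 was at 8.04 in siControl and 7.28 in siRND3 cells, a difference of -0.76 after 0.09 at 24 h. RRM2 was at 9.31 and 8.61 (-0.71, after 0.06), and CDC6 at 6.12 and 5.67 (-0.44, after 0.20). These were the members whose sign turned with the widest gap between times. CDT1 (-0.52), POLD3 (-0.56), MCM4 (-0.48) and E2F1 (-0.47) were lower at both times. RPA3 was at 13.52 in siControl and 14.07 in siRND3 cells (0.55).

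**Figure D3:**
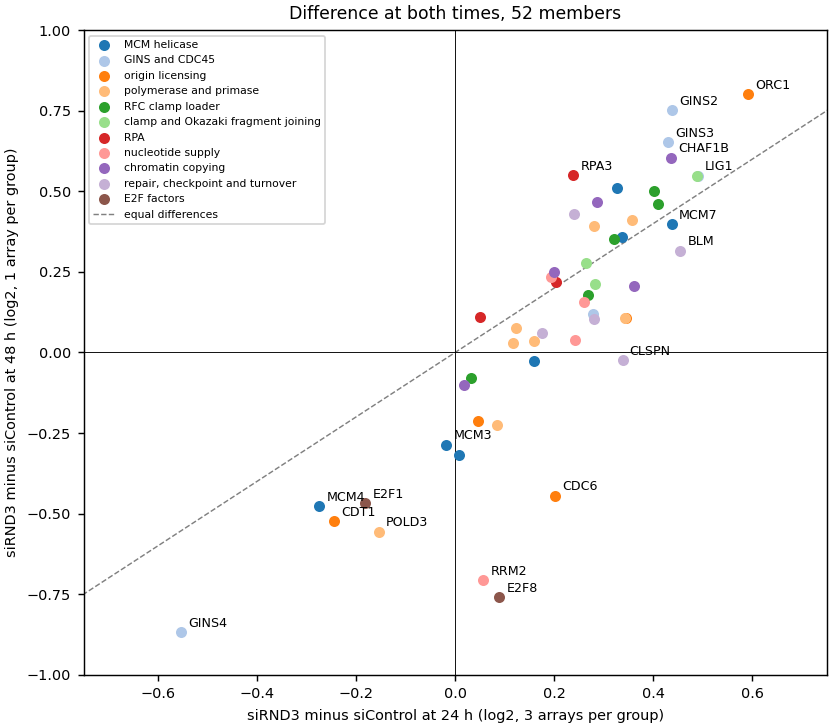
Difference between siRND3 and siControl at 24 h (horizontal, log2, mean of 3 arrays per group) and at 48 h (vertical, log2, 1 array per group) for the 52 genes, coloured by group, with a dashed line where both are equal. ORC1, GINS2 and GINS3 lie at the upper right, GINS4 at the lower left, and E2F8, RRM2 and CDC6 have a negative difference at 48 h alone.

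Whether the effect of knockdown differed between times was tested in a limma model of the 4 groups, which assumes that the lone 48 h arrays vary like those at 24 h. None of the 52 genes passed an adjusted p of 0.05 in limma, against 1.43% of all genes in the positive and 2.33% in the negative direction. At an unadjusted p under 0.05 there were 3 (CDC6, RRM2 and E2F8), against 21.9% of all genes. The lowest adjusted p was 0.112, for E2F8, whose effect at 48 h was lower by 0.85. No gene passed under any other setting.

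From 24 h to 48 h most genes of the set went to lower values in both treatments. In siControl cells 50 of the 52 genes were lower at 48 h (96.2%, against 51.5% of all genes), with a median change of -0.21 compared with -0.01 over all genes. One gene passed in the 4-group limma model, CHAF1B, which fell by 0.57 (adjusted p 0.0380; 1.92% of the set, against 3.60% of all genes called lower and 1.13% called higher). This call was lost when any 1 of the arrays at 24 h was left out, and 7 genes passed with normexp.

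In siRND3 cells 47 of the 52 genes were lower at 48 h (90.4%, against 46.3% of all genes), with a median change of -0.32 compared with 0.03 over all genes. Of these, 10 passed (19.2%, against 8.23% of all genes called lower), and no gene of the set passed as higher (3.23% of all genes). At an unadjusted p under 0.05 there were 29 of the 52, against 30.3% of all genes. E2F8 fell by 1.20 (SE 0.16, limma adjusted p 0.00935), RRM2 by 0.93, GINS4 by 0.84, E2F1 by 0.69 and EXO1 by 0.69. MCM10 fell by 0.65, ORC6 by 0.63, CDC45 by 0.58, MCM3 by 0.58 and PRIM1 by 0.55, with adjusted p for the 10 genes of at most 0.0311. GINS4 and E2F8 also had the most negative knockdown differences of the set at 48 h. None of the 14 genes up-regulated at 24 h was among the 10, which for 14 genes is near the share of 8.23% over all genes. The siRND3 arrays at 24 h both picked these 14 genes and served as the baseline of the change. In siRND3 cells their changes with time ran from -0.43 for BLM to 0.13 for RFC1. CHAF1B was at -0.40 and LIG1 at 0.04. The count was 5, 6 and 3 without siControl replicates 1, 2 and 3, 16 with the deposited values and 20 with normexp. A greater fall in siRND3 than in siControl cells was not shown for any single gene, since that difference is the same test of both times given above.

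**Figure D4:**
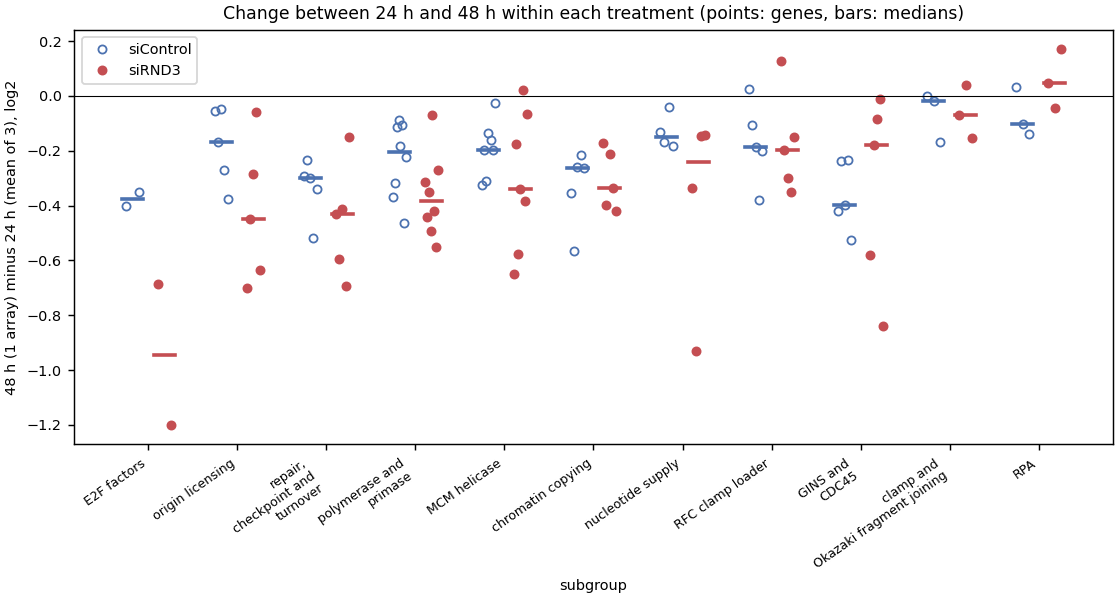
Change of each gene between 24 h (mean of 3 arrays) and 48 h (1 array) on the log2 scale in siControl (open) and siRND3 cells (filled), by group, with bars at the medians. Nearly all points lie below 0. The E2F factors fell most in siRND3 cells, where E2F8 is at -1.20, and the RPA and clamp groups lie closest to 0.

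Genes that work beside the set were taken from a further list of 86 replication and G1/S genes, all of which were tested. At 24 h 18 of them rose, 6 fell and 62 did not pass in limma, with a median difference of 0.16, where 6.71% of all genes rose and 8.31% fell with a median of 0.04. The share that fell was thus near that over all genes. Rises included 6 of 22 fork and polymerase factors and 5 of 16 replication-linked repair genes. In the G1/S and E2F circuit 5 of 20 genes rose and 4 fell, to be read against the same shares of 6.71% and 8.31%. These counts were read from the same fit and threshold as above.

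The largest rises past the threshold were in genes of the fork and of its repair. BARD1 had a larger difference of 1.34 that did not pass (limma adjusted p 0.368). It rested on siRND3 replicate 1, at 13.18 against 9.77 and 9.90 on replicates 2 and 3. TIPIN, which with TIMELESS holds the fork together when it stalls, had log2 values of 11.37, 11.29 and 11.30 in siControl cells and 12.00, 11.89 and 12.13 in siRND3 cells. It rose by 0.68 (limma adjusted p 0.00494), and TIMELESS rose by 0.41 (adjusted p 0.0240). WDHD1, which tethers the primase-polymerase to the helicase, had values of 9.76, 9.79 and 9.76 against 10.26, 10.32 and 10.37, a rise of 0.55 (adjusted p 0.00507). BRCA1, which acts in recombination and fork protection, had values of 9.79, 9.80 and 9.86 against 10.36, 10.25 and 10.49, a rise of 0.55 (adjusted p 0.0108). In TIPIN, TIMELESS, WDHD1 and BRCA1 all siRND3 arrays lay above all siControl arrays, as in 24.1% of all genes.

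The largest falls of the further list were in CDK2, SKP2 and E2F7. CDK2, the kinase that fires origins with cyclin E and cyclin A, had values of 7.60, 7.65 and 7.64 in siControl cells and 5.93, 5.86 and 6.02 in siRND3 cells. It fell by 1.70 (SE 0.07, limma adjusted p 0.000146), to 30.9% of its level in siControl cells, and was at 7.51 and 5.23 at 48 h. SKP2, which targets the CDK inhibitor p27 for destruction, had values of 7.98, 8.22 and 8.02 against 6.78, 6.98 and 6.95. It fell by 1.17 (SE 0.10, adjusted p 0.00118), to 44.5%. CDK2 and SKP2 had 1 probe each, so no second probe could be set against these falls. E2F7, the close relative of E2F8, had values of 11.75, 11.70 and 11.64 against 11.20, 11.02 and 11.25, a fall of 0.54 (adjusted p 0.0129), and was at 11.50 and 10.29 at 48 h. The falls of CDK2 and SKP2 were larger in size than any change at 24 h among the 52 genes, and the siRND3 and siControl arrays of all 3 genes did not overlap. CCNE2, the cyclin E2 partner of CDK2, rose by 0.50 (adjusted p 0.0386). The other cyclin genes of the list, CCNE1 (-0.07, limma adjusted p 0.583) and CCNA2 (0.12, adjusted p 0.326), did not pass.

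**Figure D5:**
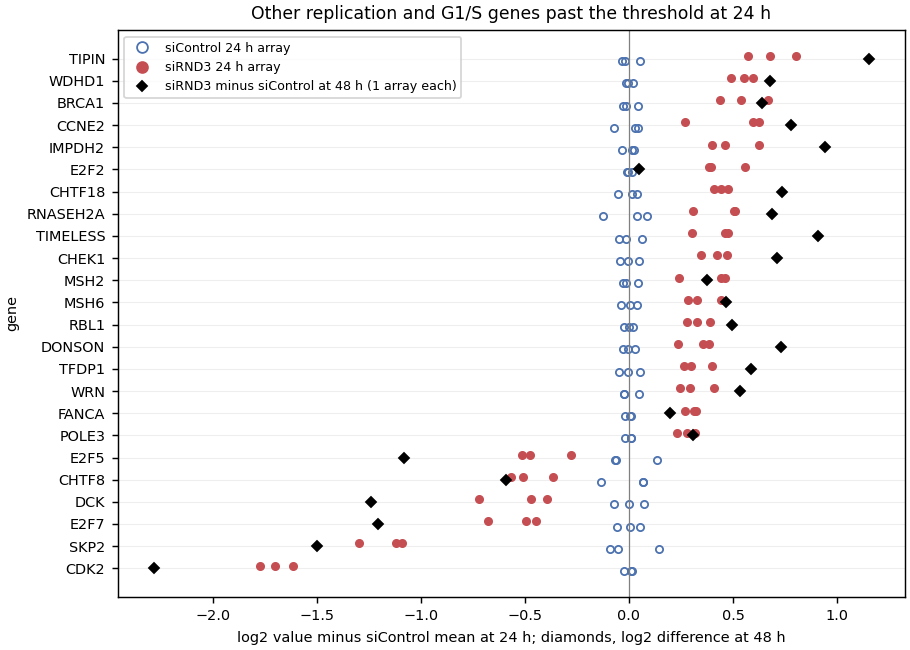
The 24 genes of the further list past a limma adjusted p of 0.05 at 24 h, as the log2 value of each array at 24 h minus the siControl mean (open, siControl; filled, siRND3), with the difference between the single arrays at 48 h as a diamond. CDK2 at -1.70 and SKP2 at -1.17 lie far left of the other genes, and TIPIN at 0.68 lies farthest right.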

How the data were processed

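Total RNA was measured in 8 samples, 1 array each, on Agilent 1-colour arrays. The authors scanned the arrays and deposited spot intensity from Agilent Feature Extraction 10.7.3.1 (submitters' processing notes), with background corrected within each array. They also deposited log2 values, whose rank order within each array was that of the spot median signal (lowest Spearman correlation 1), and these served as an alternative.

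Log2 of the processed intensity was taken and quantile-normalised across all 8 arrays together. Control spots (4259 of 62976) and outlier spots (0.364% to 0.530%) were left out, and spots were averaged per probe. No spot was saturated. A probe counted as well above background where at least 50% of its spots carried the software's own mark for this, and the 28759 probes that did so on all 3 arrays of either group at 24 h were tested. Accessions were named through the RefSeq gene table (25422 probes). With limma 3.58.1 in R 4.3.3, siRND3 and siControl were compared on the 6 arrays at 24 h, and times in a model of 4 groups, with Benjamini-Hochberg adjustment over all probes and a threshold of 0.05. The fit was tested on simulated data. Genes are counted by their brightest probe. The number of arrays limits the precision, and since the labels do not name separate cultures, p-values measure only the spread between these samples.

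The members, the further list, the groups and the tests were chosen with earlier results of these data known. By rule, array values are given for all MCM genes, for the largest rise and the largest fall of each other group and for whole groups of up to 3 genes, and in the further list for 3 rises and 3 falls. Values of GINS2 and GINS3, and of TIMELESS, BARD1, CCNE1, CCNE2, CCNA2, E2F2, E2F5 and TFDP1 in the further list, were added after they were seen. Other settings tried were scaling to the 75th percentile, normexp with an offset of 50, the deposited log2 table, no filter and a stricter filter on dim probes, averaging a gene's probes, the 24 h arrays normalised alone, all 8 arrays in the fit, significance analysis of microarrays (SAM, the methods' test), array weights, the replicate number as a block, and leaving out each array at 24 h. Normexp used the spot median.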

Additional observations from a re-analysis of the deposited data

How the results depend on the processing

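The median difference of the 52 genes at 24 h was 0.25 and stayed between 0.23 and 0.29 over the settings in which it was computed (not SAM, array weights, the replicate block or the fit of all 8 arrays), with 0.29 under scaling to the 75th percentile. That at 48 h was 0.14, and 0.18 with the deposited values. Up-regulated genes at 24 h numbered 14, and 25 with normexp, 1 with the replicate block and 1 to 12 when 1 array was left out (without siControl replicate 1 it was 2, without replicate 2 or 3 it was 1, and without siRND3 replicates 2 and 3 it was 9 and 6). Down-regulated genes numbered 1, and 3 with all 8 arrays, 2 with normexp and 0 to 1 when 1 array was left out. Genes changed with time in siControl cells numbered 1, and 4 with array weights, 3 with the deposited values, 7 with normexp, 0 with the replicate block and 0 to 0 when 1 array was left out. In siRND3 cells they numbered 10, and 16 with the deposited values, 20 with normexp, 0 with the replicate block and 3 to 10 when 1 array was left out. No gene had a different effect at 48 h under any setting. Replicate numbers did not pair the arrays, as same-numbered arrays correlated in their deviations at 0.00, -0.01 and 0.13 and 3 of 6 arrays correlated best with their own number. Of the single genes at 24 h, those near 0 changed sign. With all 8 arrays in the fit E2F8 was at -0.12, MCM10 at -0.073, ORC6 at -0.018, RRM2 at -0.13 and SLBP at -0.012. Scaling to the 75th percentile put MCM3 at 0.020. RFC3 at 24 h was at -0.0046 with the deposited values and at -0.0059 with normexp. When 1 array was left out, the difference ranged from -0.0074 to 0.20 for E2F8, -0.058 to 0.057 for MCM10, -0.045 to 0.0089 for MCM3 at 24 h, -0.019 to 0.094 for ORC6, -0.029 to 0.092 for RFC3, -0.035 to 0.16 for RRM2 at 24 h and -0.030 to 0.079 for SLBP. Over all single genes and settings, 756 values kept direction and call, 75 lost the call, 36 gained it and 17 changed sign. Where no cause is given, the cause was not tested. Signal over background did not limit these genes, since all 52 were well above background on all 8 arrays. The 48 h comparisons rest on single arrays.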
